A study of Mus musculus with 6 samples.

Results

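The 46 interferon signalling and response genes described here were chosen by name, and all 46 were found by symbol among the 41255 genes listed. They comprised 4 receptor genes, 8 transcription factor genes, 7 genes for nucleic acid sensors and their adaptors, and 27 genes that interferons are known to induce. Their mRNA levels were measured by sequencing in Ba/F3, an interleukin-3 dependent lymphoid cell line of the mouse, into which a cDNA of human RPL10, a protein of the large ribosomal subunit, had been brought by retrovirus. The 3 WT cultures (clones 28, 29 and 36) carried the unmutated cDNA and the 3 R98S cultures (clones 11, 13 and 35) carried the R98S form found in T-cell acute lymphoblastic leukemia. In all 6 cultures the mouse Rpl10 gene was targeted by a short hairpin RNA, and all were treated briefly with cycloheximide, a blocker of translation, before RNA was isolated. Each culture had grown from a single cell and gave 1 library, so each group is a model of 3 clones. The standard deviations (SD) below are spreads between clones, while the standard errors of fold changes come from a model fitted over all genes tested. No culture was labelled as treated with interferon.

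Interferons are secreted proteins that warn cells of infection. Type I interferons bind a receptor made of Ifnar1 and Ifnar2, and interferon gamma binds one made of Ifngr1 and Ifngr2, and both receptors activate JAK kinases at the membrane. Below the type I receptor, Stat2 and Irf9 enter a complex that binds the interferon-stimulated response element (ISRE) in the promoters of genes such as Ifit1, Isg15 and Oas1a. Below the interferon gamma receptor, a STAT dimer binds the gamma-activated site (GAS). Sensors such as Ddx58 (RIG-I), Ifih1 (MDA5) and Mb21d1 (cGAS) detect foreign or misplaced nucleic acid and lead, through Mavs or Tmem173 (STING), to interferon production.

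Promoter sequences from RefSeq (GRCm38.p6) covered 250 bases before to 50 bases after the transcript start and were matched for 36 of the 46 members. The ISRE core was searched as GAAA, any pair of bases and GAAA again, and the GAS core as TTCNNNGAA, each on both strands and with overlapping matches counted. The ISRE core lay in the promoters of 16 members (44.4%), against 3.99% of the 27025 genes with a promoter sequence. The GAS core lay in 12 members (33.3%), against 9.55% of all genes, and 5 members held both cores. Of the 21 induced genes with a promoter sequence, 12 held the ISRE core. The following stretches of 10 bases on either side of a match show 1 ISRE core in capitals for a signalling gene, an effector of each main family and a guanylate-binding protein. Further matches within the stretches of Isg15, Oas1a and Bst2, in Bst2 also of the GAS core, were left in lower case. Where the letters read TTTC, the core is on the opposite strand.

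Stat2 (chr10:128270266-128270295, plus strand): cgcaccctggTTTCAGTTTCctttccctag
Ifit1 (chr19:34640775-34640804, plus strand): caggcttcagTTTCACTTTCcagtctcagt
Isg15 (chr4:156200877-156200906, minus strand): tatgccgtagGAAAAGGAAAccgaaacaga
Oas1a (chr5:120907526-120907555, minus strand): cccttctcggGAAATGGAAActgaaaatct
Oas3 (chr5:120777715-120777744, minus strand): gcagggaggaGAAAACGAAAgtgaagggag
Gbp7 (chr3:142530273-142530302, plus strand): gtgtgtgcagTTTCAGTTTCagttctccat
Bst2 (chr8:71537583-71537612, minus strand): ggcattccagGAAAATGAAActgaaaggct

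The GAS core stood upstream in the following promoters of a receptor gene and a transcription factor gene, shown in the same way because both genes sit early in the pathway.

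Ifnar2 (chr16:91372559-91372587, plus strand): tgccaaggccTTCCTGGAAgaagagagta
Irf1 (chr11:53769914-53769942, plus strand): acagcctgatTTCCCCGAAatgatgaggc

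For Stat2, Ifnar2, Ifngr2 and Ifi35, whose levels passed the test described below, the 250 bases before the start are shown so that the letters can be set beside the values. The core of an ISRE stood in that of Stat2 and the core of a GAS in that of Ifnar2. In the stretches of Ifngr2 and Ifi35 neither core was found, and the only match of Ifi35 lay beyond the start. A match of letters is a description and no evidence that a factor binds there.

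Stat2 (chr10:128270248-128270497, plus strand): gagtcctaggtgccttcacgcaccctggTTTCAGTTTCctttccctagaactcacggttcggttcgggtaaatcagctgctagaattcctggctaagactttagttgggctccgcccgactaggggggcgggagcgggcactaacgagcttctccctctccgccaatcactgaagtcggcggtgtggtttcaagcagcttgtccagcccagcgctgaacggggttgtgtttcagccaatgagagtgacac
Ifnar2 (chr16:91372533-91372782, plus strand): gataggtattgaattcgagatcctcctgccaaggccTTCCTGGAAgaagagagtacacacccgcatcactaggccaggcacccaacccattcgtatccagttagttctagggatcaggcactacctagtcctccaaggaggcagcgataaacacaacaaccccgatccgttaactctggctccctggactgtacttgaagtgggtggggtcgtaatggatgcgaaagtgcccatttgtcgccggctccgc
Ifngr2 (chr16:91546809-91547058, plus strand): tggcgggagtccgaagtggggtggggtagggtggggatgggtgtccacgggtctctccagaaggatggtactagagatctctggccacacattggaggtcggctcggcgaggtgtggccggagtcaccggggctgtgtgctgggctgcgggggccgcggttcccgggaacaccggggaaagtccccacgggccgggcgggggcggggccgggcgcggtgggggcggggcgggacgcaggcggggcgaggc
Ifi35 (chr11:101448162-101448411, plus strand): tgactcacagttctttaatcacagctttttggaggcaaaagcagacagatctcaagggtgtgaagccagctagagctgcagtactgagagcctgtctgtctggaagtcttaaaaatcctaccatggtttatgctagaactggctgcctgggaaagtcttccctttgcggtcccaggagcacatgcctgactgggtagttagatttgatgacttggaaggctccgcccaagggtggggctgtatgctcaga

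Values per clone are always given in the order of clones 28, 29 and 36 for WT and of clones 11, 13 and 35 for R98S. Levels are normalized read counts, that is, reads assigned to a gene divided by a factor for the size of its library. The libraries held between 21786776 and 24204991 reads assigned to genes, and a count of 3 reads, taken as the floor, corresponded to 2.78 to 3.22 normalized counts. Reads listed for Rpl10, the gene targeted in every clone, averaged 2637 ± 655 for WT and 2509 ± 580 for R98S (SD, n = 3). Reads of the human transgene could be among them, and the hairpin was in both groups, so this value measures no knockdown and checks no label. Of the genes that mark interleukin-3 dependent cells, Il3ra, Csf2rb, Csf2rb2 and Ptprc were all well above the floor, with Csf2rb and Csf2rb2 called higher and Ptprc called lower in R98S clones. Among B lineage markers, Cd79a and Cd79b were expressed (Cd79b called higher in R98S clones) while Vpreb1, Igll1 and Pax5 had at most 3 reads in every library. The markers searched for plasmacytoid dendritic cells had at most 4 reads in any library, and those for fibroblasts at most 13. Of the T lineage markers, Cd3d had 17, 8 and 14 reads in the WT clones and 93, 44 and 64 in the R98S clones and was called higher, while Cd3e, Cd4 and Cd8a had at most 6. Among the macrophage markers, Lyz2 had 4, 23 and 43 reads in the WT clones and 1, 0 and 2 in the R98S clones. It passed the expression filter only through the WT clones. The summed level of the 3 macrophage markers was 20.5 to 60.0 in WT and 5.63 to 8.33 in R98S clones. Of these 3 markers, only Csf1r did not share the fall, with 5, 5 and 4 reads in WT and 5, 2 and 7 in R98S clones. The part of these markers in the results below was not tested.

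A smaller share of the interferon genes than of all genes passed the test. At a limma adjusted p under 0.1, 5 of the 39 members that could be tested passed (12.8%), against 23.9% of all 11550 genes tested. The level of Oas2, which makes a second messenger that activates RNA decay, and of Ifi35 rose in R98S cells (2 members, 5.13%, against 10.7% of all genes called higher). Levels of Stat2, Ifngr2 and Ifnar2 fell (3 members, 7.69%, against 13.1% of all genes called lower). Groups did not overlap in 7 of the 39 members (17.9%), against 37.3% of all genes tested. The median log2 fold change, R98S minus WT, was 0.05 over the tested members and -0.01 over all genes tested. Regardless of direction, the median size of the log2 fold change was 0.31 over the tested members and 0.27 over all genes tested. The spread between clones, given further below, was larger in the median member than in the median gene. Its part in the lower share of members that passed was not tested. The 7 members with a mean normalized count under 10 (Irf8, Ifit3, Mx2, Rsad2, Ifih1, Gbp2 and Zbp1) were not tested, and Mx1 passed this filter only through its WT clones. In cultures measured in bulk, fewer cells expressing a gene and less RNA per cell cannot be told apart.

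**Figure D1:**
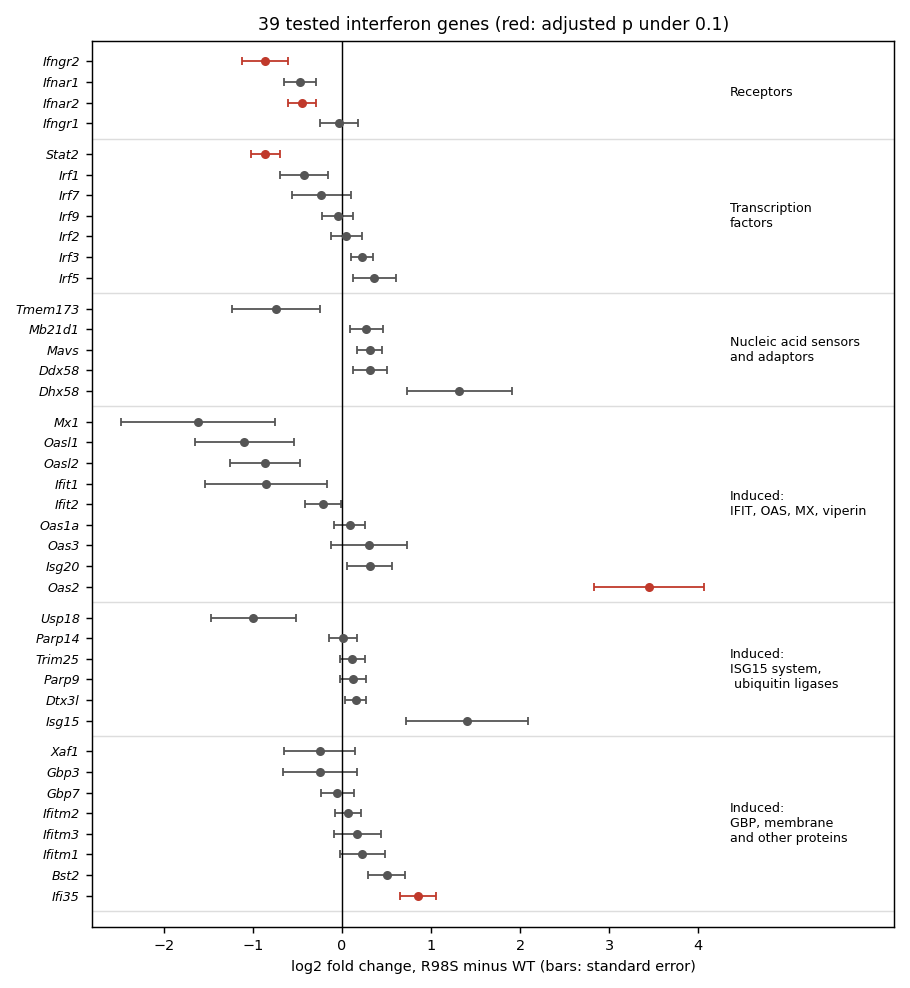
Log2 fold change (R98S minus WT, horizontal axis) with its standard error for each of the 39 tested members, grouped by role. Red marks the 5 members with an adjusted p under 0.1, of which Oas2 lies farthest from 0, at 3.45.

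Of the 4 receptor genes, 2 passed (50%, against 23.9% of all genes tested), both lower. Ifngr2, the signalling chain of the interferon gamma receptor (chromosome 16, 91547072 to 91565623, plus strand, GRCm38), had normalized counts of 1384, 1623 and 775 in the WT clones and of 742, 577 and 679 in the R98S clones. The groups did not overlap, but WT clone 36 lay just above the highest R98S clone. The mean fell from 1260 ± 437 to 666 ± 83.5 (SD, n = 3), and the log2 fold change was -0.86 with a standard error of 0.26 (limma, adjusted p = 0.0605). Without WT clone 36 the log2 fold change was -1.18 (adjusted p = 0.00765), while leaving out any other clone ended the call, with an adjusted p of up to 0.175.

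Ifnar2, the chain of the type I receptor that binds interferon most tightly (chromosome 16, 91372783 to 91405589, plus strand), had normalized counts of 592, 696 and 545 in the WT clones and of 465, 387 and 493 in the R98S clones. All R98S clones lay below all WT clones. The log2 fold change was -0.45 with a standard error of 0.16 (limma, adjusted p = 0.0916). This value is close to the threshold, and Ifnar2 was called in 7 of 17 alternative analyses. Among leave-one-out fits, the call remained only without WT clone 36.

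Ifnar1, the other chain of the type I receptor, had normalized counts of 1270, 1528 and 956 in the WT clones and of 927, 793 and 957 in the R98S clones. WT clone 36 and R98S clone 35 differed by less than 1 normalized count, so the groups overlapped. Its log2 fold change of -0.47 did not pass (limma, adjusted p = 0.119), but did without WT clone 36 (-0.65, adjusted p = 0.0354) and with DESeq2 on the recovered reads (adjusted p = 0.0648). Ifngr1, the ligand-binding chain of the interferon gamma receptor, ranged from 394 to 562 in WT and from 365 to 565 in R98S clones. Its log2 fold change of -0.04 (standard error 0.21) turned positive when libraries were scaled to the same upper quartile, and no difference was detectable.

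**Figure D2:**
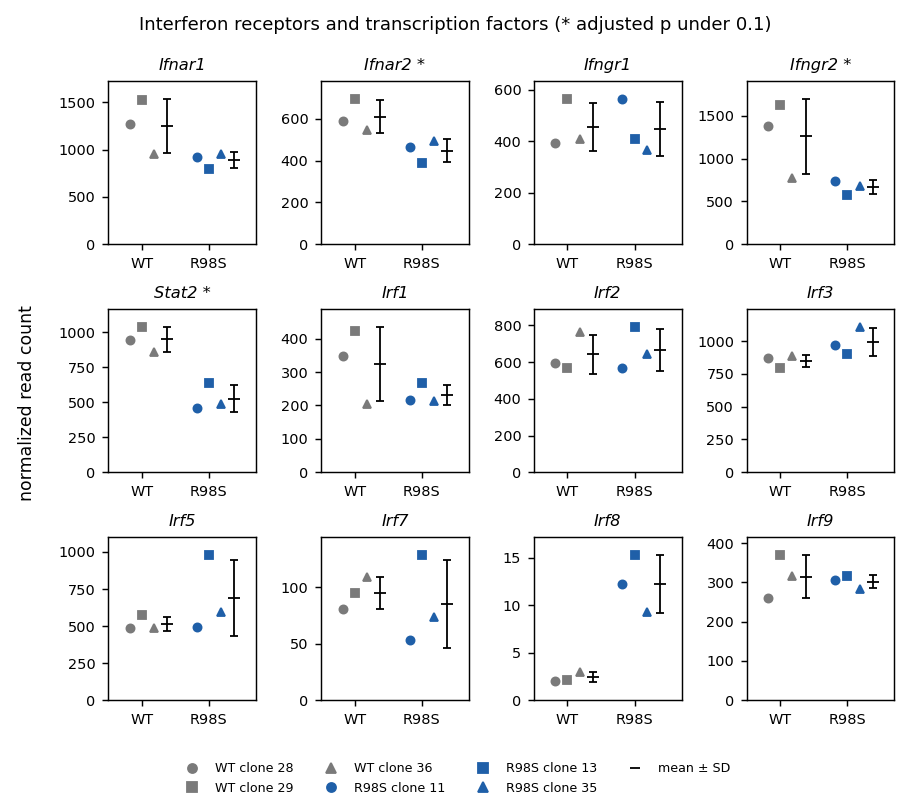
Normalized read counts (vertical axes, each from 0) of the 4 receptor genes and 8 transcription factor genes in each clone, with the group mean ± SD beside the points. In Ifnar2, Ifngr2 and Stat2 the R98S clones lie below all WT clones, and in Irf3 and Irf8 above them.

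Ifnar2, Ifnar1 and Ifngr2 lie close together on chromosome 16, within 91372783 to 91565623, an interval that also holds the tested genes Il10rb and Gm7860. Il10rb encodes a chain shared by the interleukin-10 and interferon lambda receptors. This neighbourhood was examined after the values were seen. Il10rb showed a log2 change of -0.36 (limma, adjusted p = 0.20), with all R98S clones below all WT clones, and Gm7860, between Ifnar1 and Ifngr2, had 0.33 (adjusted p = 0.567). On the proximal side Paxbp1 had 0.01 and 4932438H23Rik rose by 2.51 (adjusted p = 0.0434). On the distal side Tmem50b had -0.33 (adjusted p = 0.24), while Dnajc28 rose by 1.68 (adjusted p = 0.0287, a gene that passed the filter only through its R98S clones) and Gart by 0.28 (adjusted p = 0.0742). Son (0.02) and Donson (0.08) were close to 0. For Ifngr2, Ifnar2 and Ifnar1, the shift of a library was the median deviation of the 30 nearest tested genes from their means. The mean shift of R98S minus that of WT clones lay between -0.09 and -0.07. With each library's shift removed the log2 fold changes were -0.77 for Ifngr2, -0.38 for Ifnar2 and -0.38 for Ifnar1.

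**Figure D3:**
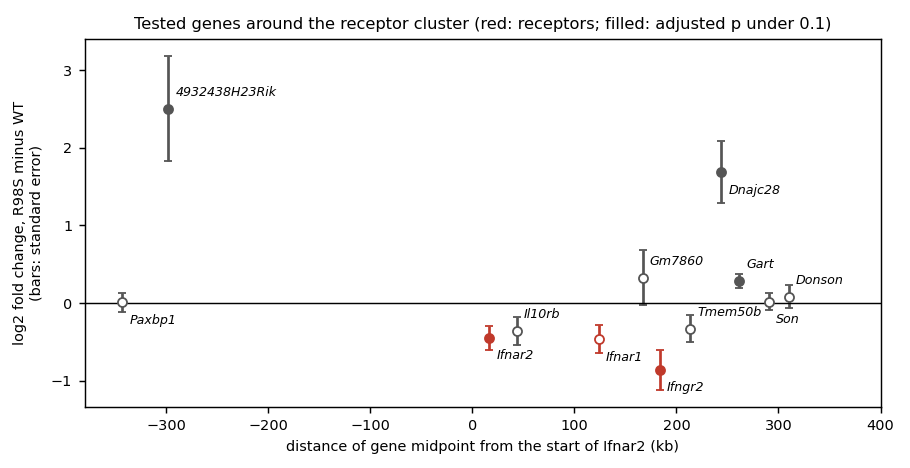
Log2 fold change (R98S minus WT, with its standard error) of tested genes against the distance of their midpoint from the start of Ifnar2, in kb. The 3 receptor genes (red) and Il10rb lie between -0.86 and -0.36, Gm7860 among them lies at 0.33, and filled points have an adjusted p under 0.1.

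Of the 7 tested transcription factors, Stat2 passed (14.3%, against 23.9% of all genes tested). Stat2 (chromosome 10, 128270559 to 128292849, plus strand), the STAT that is specific to the type I and lambda pathways, had normalized counts of 944, 1038 and 860 in the WT clones and of 457, 635 and 485 in the R98S clones. The lowest WT clone was well above the highest R98S clone. The mean was 947 ± 89.3 for WT and 526 ± 95.7 for R98S (SD, n = 3), and the log2 fold change was -0.86 with a standard error of 0.16 (limma, adjusted p = 0.0132). Stat2 was called lower in all 17 alternative analyses, with log2 fold changes from -1.0 to -0.77.

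Irf9, the DNA-binding partner of Stat2, had normalized counts of 259, 370 and 316 in the WT clones and of 306, 317 and 283 in the R98S clones. The R98S clones all lay within the WT range, with a log2 fold change of -0.05 (standard error 0.17). Some reads of Irf9 could belong to Rnf31, which shares 123 exon bases with it on the same strand.

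Irf1, an activator that interferon gamma induces, had 348, 422 and 204 normalized counts in the WT clones and 216, 266 and 214 in the R98S clones. WT clone 36 was the lowest of all, below each R98S clone. The log2 fold change was -0.43 (limma, adjusted p = 0.311), and without WT clone 36 it was -0.73 (adjusted p = 0.0506), which passes the threshold. Irf2, which competes with Irf1 for its sites, ranged from 571 to 766 in WT and from 568 to 793 in R98S clones, a log2 fold change of 0.05 (adjusted p = 0.871).

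Irf3, which is present before infection and is activated downstream of the sensors, had normalized counts of 868, 795 and 885 in the WT clones and of 971, 900 and 1109 in the R98S clones. The groups did not overlap, yet the log2 fold change of 0.22 did not pass (limma, adjusted p = 0.261). With the shift of neighbouring genes removed it was 0.41 (adjusted p = 0.0598), and that of Irf2 was 0.49 (adjusted p = 0.0684), so both passed under that setting. Irf5 ranged from 486 to 572 in WT, while R98S clone 13 stood at 981 against 493 and 598 in R98S clones 11 and 35. Irf5 shares 411 exon bases with Tnpo3, a gene on the opposite strand with a mean normalized count of 5005, and whether the counting used strand was not given in the sources used here.

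Irf7, the factor that amplifies type I interferon production, had normalized counts of 80.9, 94.6 and 109 in the WT clones and of 53.5, 129 and 74.0 in the R98S clones. R98S clones held both the lowest and the highest value, and the log2 fold change was -0.23 with a standard error of 0.33. Irf8, a factor of myeloid and B cells, had 2 or 3 reads in each WT clone and 13, 15 and 10 reads in the R98S clones. With the WT clones at or under the floor, its mean level was at least 3.95-fold higher in R98S cells, taking the floor of 3 reads in each WT library. It was too low for the filter, and passed when no filter was used (limma, adjusted p = 0.0379).

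None of the 5 tested genes for sensors and adaptors passed in the main analysis, against 23.9% of all genes tested. Dhx58 (LGP2), which regulates RIG-I and MDA5, had normalized counts of 18.4, 14.0 and 40.0 in the WT clones and of 31.0, 132 and 42.6 in the R98S clones. R98S clone 13 stood far above all others, and the log2 fold change of 1.32 carried a standard error of 0.59 (limma, adjusted p = 0.166). Tmem173, the adaptor STING, had 551, 614 and 161 normalized counts in the WT clones and 152, 279 and 278 in the R98S clones. WT clone 36 lay among the R98S clones, and the log2 fold change moved from -0.74 (adjusted p = 0.346) to -1.35 (adjusted p = 0.0291) without it.

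Mavs, Ddx58 and Mb21d1 had log2 fold changes between 0.28 and 0.31 that did not pass. Mavs ranged from 639 to 824 in WT and from 782 to 951 in R98S clones (limma, adjusted p = 0.184). Ddx58 ranged from 485 to 634 in WT and from 597 to 909 in R98S clones, again with R98S clone 13 highest. Mb21d1 ranged from 771 to 1090 in WT and from 847 to 1211 in R98S clones, and these ranges overlapped. Ifih1 had at most 3 reads in every library. Zbp1, a sensor of Z-form nucleic acid, had 2 to 4 reads in the WT clones and 10, 21 and 1 in the R98S clones.

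Among the induced genes, 2 of the 23 tested passed (8.7%, against 23.9% of all genes tested), both higher in R98S cells. Oas2 (chromosome 5, 120730333 to 120749853, minus strand) had normalized counts of 24.6, 3.22 and 5.00 in the WT clones and of 99.5, 92.9 and 88.8 in the R98S clones. In reads these were 24, 3 and 5 against 106, 91 and 96, so only WT clone 29 was at the floor and the R98S clones lay close together. The mean was 8.57 times higher in R98S cells, with a log2 fold change of 3.45 and a standard error of 0.62 (limma, adjusted p = 0.012). Oas2 was called in all 17 alternative analyses, with log2 fold changes from 2.87 (pseudocount of 5) to 4.23 (without WT clone 28). Without WT clone 28 the other WT clones lay under the filter of 10, so Oas2 entered that fit only through its R98S clones. The same held at a minimum mean of 50, since its mean was 10.9 in WT and 93.7 in R98S clones. These calls are therefore a description.

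None of its tested relatives passed. Oas1a and Oas3, on the same chromosome, had log2 fold changes of 0.09 and 0.30 (limma, adjusted p = 0.769 and 0.658). Oas1a ranged from 270 to 359 in WT and from 300.2 to 382 in R98S clones, and these ranges overlapped. Oas3 was highest in R98S clone 13, at 395, and in WT clone 36, at 257, and ranged from 129 to 180 in the other clones. The Oas-like genes Oasl1 and Oasl2 had log2 fold changes of -1.10 and -0.86 that did not pass (adjusted p = 0.216 and 0.17). Oasl1 stood at 159 in WT clone 29 and at 60.4 or below in every other clone. It was called lower without WT clone 36 (adjusted p = 0.0544) and with DESeq2 (adjusted p = 0.0835), whereas without WT clone 29 its log2 fold change was -0.46 (adjusted p = 0.554).

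Ifi35 (chromosome 11, 101448407 to 101458698, plus strand), which encodes a protein that partners with Nmi, had normalized counts of 273, 288 and 258 in the WT clones and of 414, 674 and 434 in the R98S clones. Every R98S clone lay above every WT clone, and R98S clone 13 stood apart from the other R98S clones. The mean rose from 273 ± 14.9 to 507 ± 145 (SD, n = 3), and the log2 fold change was 0.86 with a standard error of 0.20 (limma, adjusted p = 0.0293). The gene was called in all 17 alternative analyses, and its log2 fold change was 0.63 without R98S clone 13. Neighbouring genes had a median shift of 0.13 in the same direction.

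Isg15, Ifit1 and Usp18 had few reads and differed between clones of the same group. Isg15, a ubiquitin-like protein, had normalized counts of 4.1, 25.8 and 4.0 in the WT clones and of 27.2, 27.6 and 14.8 in the R98S clones. WT clone 29 reached the level of the R98S clones, and the log2 fold change of 1.41 (limma, adjusted p = 0.199) passed only when that clone was left out (2.21, adjusted p = 0.0441). Ifit1, which binds foreign RNA, had 30.7, 110 and 18 in the WT clones and 30.02, 31.6 and 10.2 in the R98S clones, so WT clone 29 alone was high. Usp18, which removes ISG15 from proteins and blocks Ifnar2 signalling, had 27.6, 26.9 and 82.1 in the WT clones and 14.1, 20.4 and 25 in the R98S clones. These groups did not overlap, but the log2 fold change of -0.99 did not pass (adjusted p = 0.196) and was -0.48 without WT clone 36.

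Mx1, an antiviral GTPase, had 4, 18 and 33 reads in the WT clones and 1, 10 and 5 reads in the R98S clones, and its log2 fold change of -1.62 had a standard error of 0.87. Rsad2 (viperin) had at most 3 reads in any library, and Ifit3, Mx2 and Gbp2 at most 10. Ifit2, in contrast, was expressed at 745 to 1213 normalized counts in WT and at 664 to 836 in R98S clones, with WT clone 36 highest. Reads of Ifit3, Oas1a and the guanylate-binding protein genes may be lost or split, since they have near-identical copies and alignments of low mapping quality were removed.

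The highest read counts among the members, which are not corrected for gene length, were those of membrane proteins. Ifitm1, Ifitm2 and Ifitm3, which hinder the entry of viruses, had mean normalized counts of 42970, 7578 and 5835 in WT and of 51188, 7993 and 6575 in R98S cells. Their log2 fold changes were 0.23, 0.06 and 0.17, with standard errors between 0.15 and 0.26, and each turned negative when the shift of their neighbours was removed. Bst2 (tetherin), which holds budding viruses at the cell surface, had 859, 1080 and 1131 normalized counts in the WT clones and 1037, 1746 and 1649 in the R98S clones. R98S clone 11 lay within the WT range, and the log2 fold change of 0.50 did not pass (limma, adjusted p = 0.146) but did with DESeq2 (adjusted p = 0.0646), without R98S clone 11 and with the neighbours' shift removed (0.74, adjusted p = 0.0247).

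The ubiquitin ligase and ADP-ribosyltransferase genes gave no call. Trim25, which activates RIG-I, had a mean of 2448 ± 141 for WT and 2680 ± 491 for R98S (SD, n = 3). Dtx3l and its partner Parp9 had log2 fold changes of 0.16 and 0.13, and Parp14 had 0.01, each with a standard error between 0.12 and 0.16. Dtx3l and Parp9 overlap over 458 exon bases on opposite strands. Isg20, Gbp3, Gbp7 and Xaf1 had log2 fold changes between -0.25 and 0.31, and none of them passed under any alternative.

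**Figure D4:**
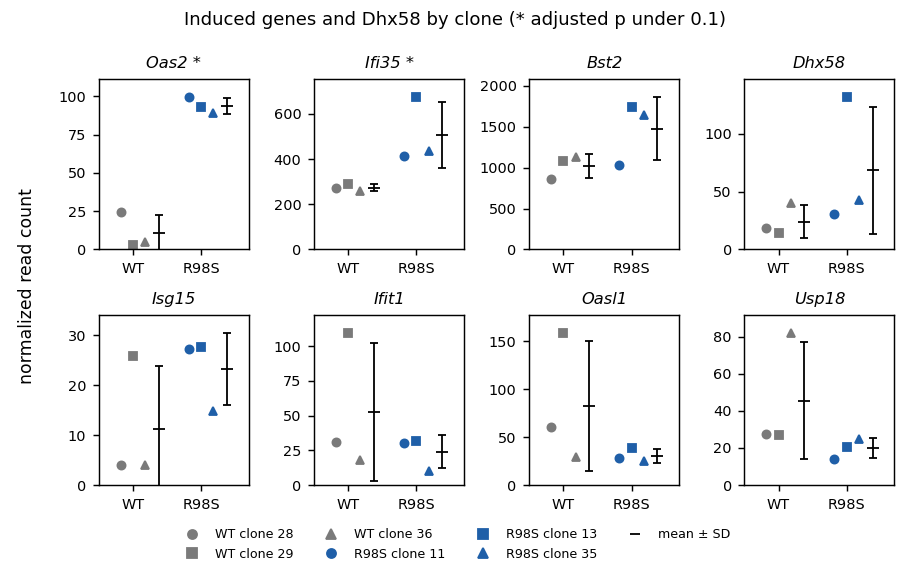
Normalized read counts (vertical axes, each from 0) of 7 induced genes and Dhx58 in each clone, with group means ± SD (bars that would pass below 0 end at the axis). Oas2 and Ifi35 separate the groups, whereas Ifit1 and Oasl1 are highest in WT clone 29, Usp18 in WT clone 36 and Dhx58 in R98S clone 13.

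The spread between clones of the same genotype was larger in the median member than in the median gene. The median SD of log2 levels was 0.28 over WT clones and 0.32 over R98S clones for the 39 tested members, against 0.16 and 0.20 over all genes tested. Restricted to genes that averaged at least 100 normalized counts, it was 0.23 and 0.25 for 28 members and 0.14 and 0.18 for all such genes. R98S clone 13 held the highest level of 16 members (41%), against 18.8% of all genes tested, and WT clone 29 that of 11 (28.2% against 19.9%). WT clone 28 was highest in none of them, against 10% of all genes. All members were measured in the same 6 libraries, so these counts describe the clones.

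**Figure D5:**
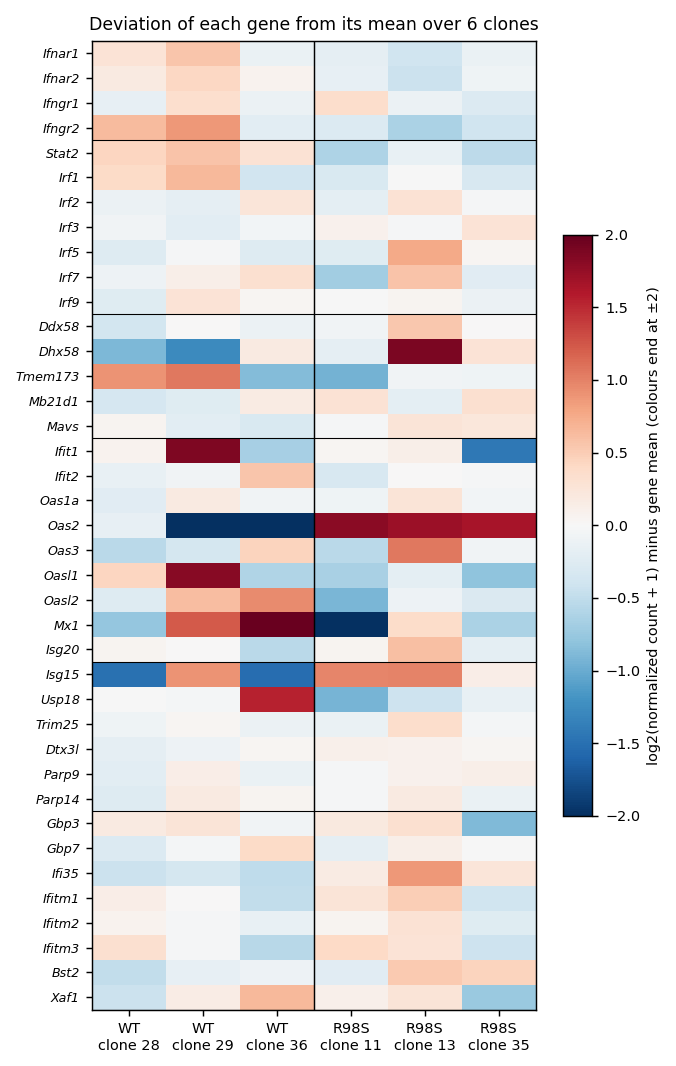
Deviation of each tested member's log2(normalized count + 1) from its mean over the 6 clones (colour scale, ending at ±2), with clones as columns and roles separated by lines. Oas2 is lower in all WT than in all R98S clones, while the extreme values of Dhx58, Ifit1, Oasl1 and Usp18 lie in single clones.

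Other genes of the pathway, taken from a list of 103 names of which 100 were found and 73 could be tested, gave 10 calls (13.7%, against 23.9% of all genes tested), 5 in each direction. Of 10 genes for the interferons themselves, 7 had no read in any library and the others at most 2 reads. Of 15 kinase and negative regulator genes, 3 passed, a share (20%) near that of all genes tested (23.9%). Socs1, an inhibitor of JAK kinases, had normalized counts of 760, 614 and 752 in the WT clones and of 1185, 1231 and 1329 in the R98S clones. The R98S clones were close to each other and far above the WT clones, and its log2 difference was 0.82 (limma, adjusted p = 0.00739). Pias3 and Pias4, inhibitors of STAT proteins, fell by 0.80 and 0.52 on the log2 scale (adjusted p = 0.0189 and 0.0468). The kinase genes Jak1 (0.02), Jak2 (-0.33) and Tyk2 (-0.23) did not pass. The call of Pias4 was lost without WT clone 28, WT clone 29 or R98S clone 11 (adjusted p up to 0.151), whereas Socs1 and Pias3 were called in all 17 alternative analyses.

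Among 21 tested genes of sensor signalling, 4 passed, a share (19%) near that of all genes tested (23.9%). Tlr4, the receptor for bacterial lipopolysaccharide, had normalized counts of 1368, 1431 and 855 in the WT clones and of 404, 363 and 521 in the R98S clones. The groups were far apart, and its log2 difference was -1.48 (limma, adjusted p = 0.00666), and again WT clone 36 was the nearest to the R98S clones. Of the adaptors of Toll-like receptors, Ticam1 fell by 0.70 (adjusted p = 0.0414) and Myd88 rose by 0.40 on the log2 scale (adjusted p = 0.0407). Without WT clone 28 or 29 neither adaptor passed, nor did Ticam1 without R98S clone 11 or Myd88 without R98S clone 35 (adjusted p up to 0.148 for Myd88), and with the neighbours' shift removed Ticam1 had -0.43 (adjusted p = 0.177). Nlrx1, a mitochondrial protein that was named after its values were seen, stood at 1.07 to 15.0 normalized counts in WT and at 34.2 to 95.9 in R98S clones. It is 1 of the 4 calls but passed the expression filter only through its R98S clones, so its values are a description.

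Of 37 further induced genes that could be tested, 3 passed (8.11%, against 23.9% of all genes tested). Nmi, the partner of Ifi35, ranged from 195 to 283 normalized counts in WT and from 324 to 464 in R98S clones. The log2 change was 0.69 (limma, adjusted p = 0.0556), and the call was lost without WT clone 28, WT clone 36, R98S clone 13 or R98S clone 35 (adjusted p up to 0.146). Trim30a showed a log2 change of 0.41 (adjusted p = 0.0968), which was 0.20 (adjusted p = 0.356) with the neighbours' shift removed and among leave-one-out fits passed only without WT clone 29. Slfn2, a regulator of lymphocyte quiescence, stood at 30.02 and 31.5 in R98S clones 11 and 35 but at 275 in R98S clone 13, against 217 to 386 in WT clones. The groups therefore overlapped, and its log2 fold change of -2.26 (adjusted p = 0.0843) was not called by edgeR (adjusted p = 0.231) or DESeq2 (adjusted p = 0.32). Among leave-one-out fits it passed only without R98S clone 13 (-3.30, adjusted p = 0.00223).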

How the data were processed

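Total mRNA was sequenced from 3 WT and 3 R98S clones, grouped by their labels. Strand-specific libraries were made from polyadenylated RNA. Reads matching ribosomal or transfer RNA were removed, the rest were aligned to the mouse genome (GRCm38), and primary alignments of sufficient mapping quality were kept. The submitters' processing notes name Bowtie2, TopHat, SAMtools, HTSeq and DESeq2. The annotation used and the strand setting of the counting were not given in the sources used here. What the authors deposited for each gene symbol is a signal, obtained by dividing its reads by the library's DESeq2 size factor.

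Nonzero values were multiples of 1 step per library, without exception (100%, tolerance 1e-06), and division by this step gave the reads. For WT clone 36 the step (1.00076) was too near 1 for this to be told from rounding. All 6 value columns matched a sample, and 0 were left without one. Clones of the same group differed by far more than counting noise.

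WT and R98S clones were compared by limma 3.58.1 in R 4.3.3 (two-sided, with an intensity trend) on log2(normalized count + 1) for the 11550 genes with a mean of at least 10. Fold changes are differences of means on this scale, and for low genes they can lie below or above those of fits on reads. The log2 fold change of Mx1 was -1.62 here and -1.83 with edgeR, and that of Oas2 was 3.45 here and 3.10 with edgeR. P-values were adjusted over all genes tested (Benjamini-Hochberg, threshold 0.1). Of the 17 alternatives, 6 left out 1 clone each. The others changed the pseudocount, filter, scaling, trend or threshold, removed the median shift of the 30 nearest genes, or used edgeR (version 4.0.16) or DESeq2 (version 1.42.0) on the recovered reads. The script was tested on simulated data. Positions are from GENCODE M21 (GRCm38), and promoters from RefSeq.

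The members and gene lists were chosen with earlier results of these data known. Named were all members, with values per clone for the receptors, the transcription factors and the genes that passed, and from the other pathway genes the called ones with a mean of at least 100. Of the pathway and marker lists, Ifit1bl1, Ifit3b, Gbp10 and Adgre1 were not analysed here, and 1 marker is not reported here.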

Additional observations from a re-analysis of the deposited data

How the results depend on the processing

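Of the 39 tested members, Stat2, Oas2 and Ifi35 were called under all 17 alternatives, and 14 members were called under at least 1. Some of the calls of Oas2 are only a description, under the settings named with its values above. In those fits Oas2 passed the filter only through its R98S clones. The number of members called, 5 in the main analysis, was 3 without the intensity trend, 3 at a threshold of 0.05, 9 with DESeq2, 8 with the shift of neighbouring genes removed, and between 3 and 9 when a clone was left out. It was 9 without WT clone 36, which added Ifnar1, Irf1, Oasl1 and Tmem173. In a different data set, made beside polysome profiling, the study left out a total RNA library of WT clone 36 that grouped with mutant samples. Whether this bears on the library used here was not tested. Members called higher were 4 with DESeq2 and 5 with the neighbours' shift removed. Members called lower were 1 without the trend, 1 at a threshold of 0.05, 5 with DESeq2, and between 1 and 7 without a clone. Over all genes, 2755 passed, 1722 at a threshold of 0.05, and between 1327 and 3219 without a clone. The cause of these changes was not tested. The direction of 16 members changed under some alternative, and of these only Irf2 was called under any. Log2 fold changes ranged over the leave-one-out fits from -0.22 to 0.12 for Ifngr1, from -0.081 to 0.18 for Irf2, from -0.57 to 0.0513 for Irf7 and from -0.18 to 0.076 for Irf9. That of Ifngr1 was 0.0039 with libraries scaled to the same upper quartile and 0.11 with the neighbours' shift removed. Scaling to the same total or upper quartile moved the median of all genes by 0.02 and 0.04. No paired analysis was possible because clones of WT and R98S cells bear different numbers. At this depth, a gene near 3 reads such as Ifih1 or Rsad2 cannot be told from one that is absent.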
